A study of Mus musculus with 2 samples.

Results

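The 9 genes described here belong to the osteoclast programme: the receptors Tnfrsf11a and Oscar, the transcription factor gene Nfatc1, the adhesion gene Itgb3, the fusion genes Dcstamp and Ocstamp, and the resorption genes Atp6v0d2, Acp5 and Ctsk. They were selected on their values in these same libraries, where earlier results had shown Acp5 and Ctsk at the head of a group of tumour macrophages, so their levels are given as a description. All 9 were found by symbol among the 31053 genes of the count matrices. The data are single-cell RNA-seq of tumours grown from AB1-HA, a mouse mesothelioma line, in mice, with 1 library labelled for an anti-VEGF antibody (anti-VEGF Ab) and 1 for a control antibody (control Ab). The blood vessel growth factor VEGF is the antibody's target. All tumours were dissociated with collagenase and DNase, and live CD45-positive cells were sorted for the 10x Genomics 3-prime assay, which counts transcripts by unique molecular identifiers (UMIs). Strain, age, antibody dose, treatment time and the number of mice per library are not given in the sources used here. With 1 library a group there is no test of the treatment. Intervals are 95% intervals that cover counting error only, and many UMIs of 1 gene can come from few cells.

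Osteoclasts are multinucleated cells of the myeloid lineage that dissolve bone, and they form when macrophage precursors meet the cytokines M-CSF and RANKL and then fuse. RANKL binds the receptor RANK, the product of Tnfrsf11a, and with a co-stimulatory signal from immunoreceptor partners such as OSCAR it turns on NFATc1, the factor that drives most later osteoclast genes. Dcstamp and Ocstamp encode membrane proteins needed for cell fusion, Itgb3 the beta chain of the integrin that seals the cell to bone, Atp6v0d2 a subunit of the proton pump, Acp5 the tartrate-resistant acid phosphatase TRAP, and Ctsk the collagen-cleaving protease cathepsin K.

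After filtering, 8159 anti-VEGF and 10805 control cells remained, with a median of 22503 UMIs per cell in the anti-VEGF library and 18265 in the control library. Cells were assigned by marker genes that include no member, and macrophages made up 5796 anti-VEGF cells (71.0%) and 7969 control cells (73.8%). Smaller gates held 366 anti-VEGF and 77 control neutrophils, 45 and 87 dendritic cells, 41 and 70 T cells, 12 and 33 NK cells, and 809 and 788 collagen-expressing cells. The collagen-expressing cells go against the CD45 sort: a UMI of Ptprc, the gene of CD45, was found in 15.5% of them in the anti-VEGF library and in 16.2% in the control library, against 88.6% and 80.0% of macrophages. Another 991 anti-VEGF and 1589 control cells met no gate and were shallow, with medians of 1923 and 1059 UMIs. A total of 35 barcode sequences occurred in both libraries, and leaving them out gave the same share of high cells to within counting error.

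A macrophage was called Acp5/Ctsk-high here when it held at least 10 UMIs of Acp5 and at least 10 of Ctsk per 10000 UMIs. This cut uses both genes, so their own values within it describe the cut. The other 7 genes are not used by it, but they too were chosen with earlier results of these libraries known. By this cut 871 anti-VEGF macrophages (15.03%, 14.1 to 16.0) and 1725 control macrophages (21.6%, 20.7 to 22.6) were high. Few cells lay within 20% of the cut, 49 in the anti-VEGF and 131 in the control library. Depth differed between the libraries: 818 of the 871 anti-VEGF high cells had at least 5000 UMIs, against 1263 of the 1725 control ones. Over all cells with at least 5000 UMIs, whatever their gate, 13.4% (12.6 to 14.2) were high in the anti-VEGF library and 18.1% (17.2 to 19.0) in the control library. The share was lower in the anti-VEGF library with and without the shallow cells. It depended on the gate, and with 8 of 9 macrophage markers asked for it was 5.31% in the anti-VEGF and 9.18% in the control library.

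The high cells met the macrophage gate but differed from other macrophages in most of its markers. Csf1r, the M-CSF receptor gene, was at 611 counts per 1e6 UMIs (CPM) in high and 372 CPM in other anti-VEGF macrophages, and at 683 and 478 CPM in the control library. Cd68 and Tyrobp were also somewhat higher in high cells. In contrast, Adgre1, the gene of the F4/80 antigen, was at 33.3 CPM in high and 238 CPM in other anti-VEGF macrophages, and at 34.3 and 263 CPM in control ones. Lyz2, Fcgr3, Ctss and C1qa were lower as well, with ratios of high over other macrophages between 0.122 and 0.260 in both libraries. The macrophage gate asks for 6 of 9 such markers. A further 189 anti-VEGF and 567 control cells met the Acp5 and Ctsk cut but no gate, with medians of 856 and 1000 UMIs. The mitochondrial share of UMIs was higher in high cells, with medians of 4.99% against 3.09% of other macrophages in the anti-VEGF library and 4.14% against 3.06% in the control library. Its part in the results was not tested. Ptprc itself was at 125 CPM in high and 182 CPM in other anti-VEGF macrophages, and at 133 and 192 CPM in control ones. Markers of other lineages were scarce in the high cells. Their neutrophil markers summed to 14.5 CPM in the anti-VEGF and 9.54 CPM in the control library with 0 of 5 markers at zero, and their collagen markers to 6.37 and 7.01 CPM with 0 of 3 at zero. Both sums were lower than in other macrophages of the same library. Their T-cell markers summed to 2.55 and 3.40 CPM with 0 of 5 at zero, and their dendritic cell markers to 4.29 and 4.63 CPM with 1 and 0 of 8 at zero. The T-cell sums were above those of other macrophages, at 0.767 and 1.20 CPM. NK-cell markers summed to 0.0335 CPM with 3 of 4 at zero and to 0.232 CPM with 0 at zero, and B-cell markers to 0.436 CPM with 1 of 4 at zero and 0.810 CPM with 2 at zero. The part of other cell types in the results was not tested.

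For 4 of the 9 genes the RefSeq promoter table of build GRCm38.p6 holds a sequence, from 250 bases before to 50 bases after a transcription start, and these are shown because the genes were found together in the same cells. Capitals mark the NFAT core motif GGAAA and the E-box CATGTG of the kind that MITF, another osteoclast factor, binds, each on either strand and without overlap between them. An AP-1 motif, TGANTCA, was searched as well and had 0 matches in all of them. The Tnfrsf11a window lies at chr1:105780473-105780772 on the plus strand, the Oscar window at chr7:3616108-3616407 on the minus strand, the Acp5 window at chr9:22135697-22135996 on the minus strand and the Ctsk window at chr3:95498960-95499259 on the plus strand.
Tnfrsf11a: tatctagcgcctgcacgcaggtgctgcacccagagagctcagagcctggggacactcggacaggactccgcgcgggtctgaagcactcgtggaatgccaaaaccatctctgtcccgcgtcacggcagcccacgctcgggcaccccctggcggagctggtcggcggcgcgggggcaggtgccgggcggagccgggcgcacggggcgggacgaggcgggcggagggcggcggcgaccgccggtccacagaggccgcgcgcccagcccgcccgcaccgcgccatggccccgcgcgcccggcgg
Oscar: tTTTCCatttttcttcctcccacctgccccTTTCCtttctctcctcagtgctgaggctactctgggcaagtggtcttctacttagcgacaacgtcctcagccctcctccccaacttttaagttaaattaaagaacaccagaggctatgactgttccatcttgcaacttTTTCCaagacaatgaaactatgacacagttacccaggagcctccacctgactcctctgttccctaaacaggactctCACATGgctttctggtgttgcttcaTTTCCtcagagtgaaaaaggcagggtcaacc
Acp5: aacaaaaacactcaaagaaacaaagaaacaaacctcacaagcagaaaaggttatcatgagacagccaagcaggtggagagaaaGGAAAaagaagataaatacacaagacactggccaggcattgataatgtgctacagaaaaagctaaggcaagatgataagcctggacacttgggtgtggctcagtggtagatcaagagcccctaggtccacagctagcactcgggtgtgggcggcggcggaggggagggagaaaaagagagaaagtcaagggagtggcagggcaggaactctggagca
Ctsk: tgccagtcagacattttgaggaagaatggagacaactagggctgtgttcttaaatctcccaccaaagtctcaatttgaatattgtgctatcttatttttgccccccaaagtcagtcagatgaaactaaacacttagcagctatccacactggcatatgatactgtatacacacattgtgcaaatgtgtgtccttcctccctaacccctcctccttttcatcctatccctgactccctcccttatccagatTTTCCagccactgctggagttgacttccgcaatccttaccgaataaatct

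The Oscar window held 4 matches to the NFAT core and 1 to the E-box, the Acp5 window shown and the Ctsk window 1 NFAT core match each, and the Tnfrsf11a window none of either. In the GENCODE vM21 annotation of the same build, Tnfrsf11a lies at chr1:105780718-105847981, Oscar at chr7:3609813-3616157, Itgb3 at chr11:104608000-104670476, Dcstamp at chr15:39745930-39760938, Ocstamp at chr2:165393760-165400405, Atp6v0d2 at chr4:19876841-19922605, Acp5 at chr9:22126727-22135711 and Ctsk at chr3:95499256-95509362. Acp5 has other annotated starts, and the one shown lies at the outer end of the gene. Its windows at chr9:22131816-22132115 and chr9:22130549-22130848 held 1 and 2 NFAT core matches and 0 and 1 E-box matches. Among 32851 promoters of the same length, 61.3% held the NFAT core, 14.2% the E-box and 7.81% the AP-1 motif, so a single match to the NFAT core is what most promoters have. A match is a description of letters, not of binding.

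The receptor gene Tnfrsf11a was found across macrophages and was only moderately higher in the high cells. Its level in high macrophages was 192 CPM (187 to 197) in the anti-VEGF and 180.3 CPM (176 to 184) in the control library. In other macrophages it was 101 CPM (99.6 to 103) in the anti-VEGF and 119 CPM (117 to 121) in the control library. High cells thus had 1.90 times the level of other macrophages in the anti-VEGF library and 1.52 times in the control library, the smallest contrast of the 9 genes. Neutrophils had 81.1 CPM in the anti-VEGF and 55.1 CPM in the control library, and dendritic cells 70.9 and 88.9 CPM. The intervals of neutrophils and dendritic cells overlapped in the anti-VEGF library and were apart in the control library. Across 7 macrophage states Tnfrsf11a stayed between 71.6 CPM in MHC class II-rich and 113 CPM in cycling macrophages of the anti-VEGF library, and between 66.9 CPM in hypoxia-gene and 130 CPM in cycling macrophages of the control library. Collagen-expressing cells were far lower, at 19.7 CPM in the anti-VEGF and 22.3 CPM in the control library. After thinning each cell to 5000 UMIs, a Tnfrsf11a UMI was seen in 37.7% of other anti-VEGF macrophages and 39.5% of other control macrophages, against 3.93% and 7.14% of collagen-expressing cells without the barcodes that met the Acp5 and Ctsk cut, whose median depth before thinning was 35927 and 16107 UMIs.

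Oscar, the immunoreceptor that co-stimulates osteoclast precursors through the adaptor FcR gamma, was found almost wholly in the high macrophages among the macrophages. Its level there was 79.8 CPM (76.6 to 83.0) in the anti-VEGF and 57.7 CPM (55.4 to 60.0) in the control library. In other macrophages it was 0.336 CPM in the anti-VEGF library, from 42 UMIs, and 0.508 CPM in the control library, from 72 UMIs. Of all Oscar UMIs in macrophages, 98.3% in the anti-VEGF and 97.2% in the control library lay in high cells, which held 19.2% and 23.4% of all macrophage UMIs. After thinning, 24.4% of anti-VEGF and 17.6% of control high cells had an Oscar UMI, against 0.216% and 0.214% of other macrophages and 0.171% and 0.238% of collagen-expressing cells that did not meet the cut. Neutrophils held 6.58 CPM in the anti-VEGF library and 0 UMIs in the control library, where 3 counts would be the level of 1.95 CPM. Without the neutrophil barcodes that themselves met the Acp5 and Ctsk cut, the anti-VEGF value was 0.786 CPM.

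Nfatc1, the gene of the master transcription factor, was high in the same cells but far from absent elsewhere. High macrophages had 461 CPM (453 to 468) in the anti-VEGF and 526 CPM (519 to 533) in the control library. Other macrophages had 55.4 CPM (54.1 to 56.7) in the anti-VEGF and 112 CPM (110.1 to 114) in the control library. The contrast of high over other macrophages was therefore 8.32-fold in the anti-VEGF and 4.71-fold in the control library, and high cells held 66.5% and 58.9% of the macrophage UMIs of Nfatc1. T cells, in which NFATc1 also acts downstream of the antigen receptor, had 72.5 CPM (48.2 to 105) in the anti-VEGF and 234 CPM (199 to 275) in the control library. The control value was 132 CPM without the 6 T-cell barcodes that met the Acp5 and Ctsk cut. Collagen-expressing cells, with the barcodes that met the cut included, were below other macrophages, at 29.5 CPM in the anti-VEGF and 37.0 CPM in the control library.

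Itgb3, the integrin beta 3 gene, was rare but sharply placed. High macrophages had 26.4 CPM (24.6 to 28.3) in the anti-VEGF and 20.4 CPM (19.1 to 21.8) in the control library. Other macrophages had 0.599 CPM from 75 UMIs in the anti-VEGF and 0.572 CPM from 81 UMIs in the control library. High cells held 91.3% of its macrophage UMIs in the anti-VEGF and 91.6% in the control library. Itgb3 UMIs were also found in lymphocytes, in small numbers. NK cells had 100.5 CPM (45.9 to 191) from 9 UMIs in the anti-VEGF and 32.9 CPM (17.0 to 57.5) from 12 UMIs in the control library. T cells had 54.4 CPM (33.6 to 83.1) in the anti-VEGF and 6.13 CPM (1.67 to 15.7) in the control library, from 21 and 4 UMIs, and the intervals of T and NK cells overlapped in the anti-VEGF library. After thinning, 0 of 36 control T cells that did not meet the cut held an Itgb3 UMI, at most 8.33% when 3 counts are taken as the limit. The part of RNA from other droplets in the lymphocyte values was not tested.

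**Figure D1:**
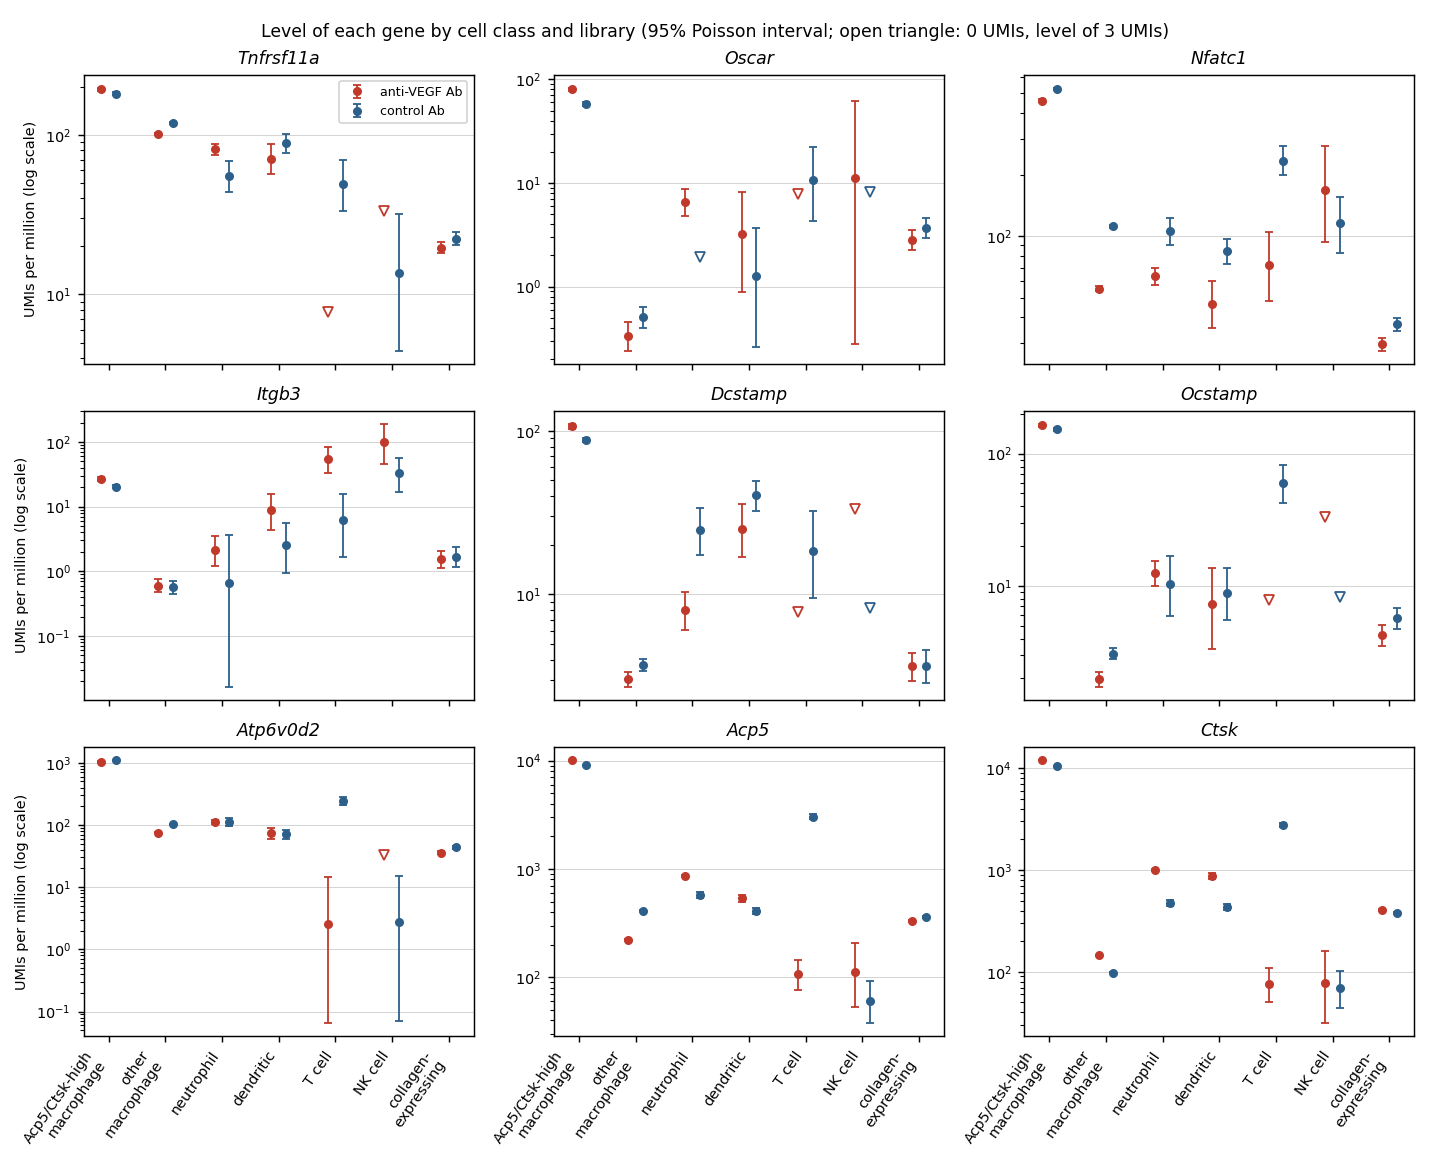
Level of each of the 9 genes (CPM, log axis) in 7 cell classes, with the anti-VEGF library left of the control library in each class; points are summed UMIs with 95% Poisson intervals, and an open triangle marks 0 UMIs at the level that 3 UMIs would give. Acp5/Ctsk-high macrophages stand highest for 8 of the 9 genes, while Itgb3 has its highest value in NK cells, whose interval overlaps that of high macrophages in the control library.

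The fusion genes Dcstamp and Ocstamp both marked the high cells, with a second place of expression for Dcstamp. Ocstamp was at 163 CPM (159 to 168) in anti-VEGF and 153 CPM (149 to 157) in control high macrophages, and at 1.97 and 3.07 CPM in other macrophages of the same libraries. High cells held 95.2% of its macrophage UMIs in the anti-VEGF and 93.8% in the control library. Dcstamp was at 106 CPM (103 to 110.1) in anti-VEGF and 87.7 CPM (84.9 to 90.5) in control high macrophages, and at 3.03 and 3.72 CPM in other macrophages. Dendritic cells, from which the gene takes its name, had 24.98 CPM (17.0 to 35.5) of Dcstamp in the anti-VEGF and 40.2 CPM (32.5 to 49.2) in the control library. Leaving out the dendritic cell barcodes that met the Acp5 and Ctsk cut left 20.02 and 39.5 CPM. In the 10% of macrophages with the most MHC class II transcripts, Dcstamp was at 13.6 CPM in the anti-VEGF and 17.9 CPM in the control library without high cells, above the level of other macrophages in both. Ocstamp in those macrophages was at 2.01 and 2.98 CPM, close to other macrophages.

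The resorption genes follow, of which only Atp6v0d2 is not used by the cut. Atp6v0d2 was at 1044 CPM (1032 to 1056) in anti-VEGF and 1095 CPM (1085 to 1105) in control high macrophages. Other macrophages had 74.9 CPM (73.4 to 76.4) in the anti-VEGF and 102 CPM (100.4 to 104) in the control library. After thinning, 97.1% of anti-VEGF and 96.5% of control high cells held an Atp6v0d2 UMI, against 19.5% and 20.6% of other macrophages and 1.88% and 3.57% of collagen-expressing cells that did not meet the cut. Hypoxia-gene macrophages, those with the most Adm, Ndrg1, Ankrd37, Egln3 and Slc2a1, had 110.3 CPM of Atp6v0d2 without high cells in the anti-VEGF and 72.0 CPM in the control library. This was the macrophage state with the highest Atp6v0d2 outside the high cells in the anti-VEGF library, while Nfatc1 was lowest of the 7 states there, at 17.4 CPM in the anti-VEGF and 14.0 CPM in the control library.

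Acp5 reached 10093 CPM (10057 to 10129) in anti-VEGF and 9087 CPM (9059 to 9116) in control high macrophages, and Ctsk 12004 CPM (11965 to 12044) and 10585 CPM (10554 to 10616). Within high cells the spread was wide: the middle cell held 93.4 Acp5 UMIs per 10000 in the anti-VEGF and 78.2 in the control library, and the highest 468 and 556. In other macrophages Acp5 was at 222 CPM in the anti-VEGF and 412 CPM in the control library, and Ctsk at 145 and 98.0 CPM. Ctsk UMIs were also found in cells of other types, T cells among them, which are expected to lack it. Without the barcodes that met the cut, Ctsk was at 75.1 CPM in T cells of the anti-VEGF and 62.0 CPM in those of the control library, at 152 and 49.7 CPM in neutrophils, and at 39.6 and 39.2 CPM in collagen-expressing cells. After thinning, Ctsk was seen in 23.4% of other anti-VEGF and 25.8% of other control macrophages, and in 19.4% and 27.8% of the 31 and 36 T cells that were deep enough and did not meet the cut. The part of RNA from other droplets in these values was not tested. The median depth was 7483 and 5694 UMIs in these T cells before thinning and 22538 and 20910 UMIs in other macrophages. Acp5 in control T cells was at 3049 CPM, and at 188 CPM without the 6 barcodes that met the cut. The share of Ctsk among the summed Ctsk and Acp5 UMIs was 54.3% in high cells of the anti-VEGF and 53.8% in those of the control library. In other macrophages it was 39.5% (39.1 to 40.0) in the anti-VEGF and 19.2% (18.9 to 19.5) in the control library. Among cells of other types that did not meet the cut it was 41.4% and 24.8% in T cells, 59.6% and 15.6% in neutrophils, 30.9% and 30.7% in dendritic cells and 50.9% and 35.5% in collagen-expressing cells. Since the cut uses both genes, this share depends on it. Macrophages above the cut for Acp5 but not for Ctsk numbered 216 in the anti-VEGF and 607 in the control library, and those above it for Ctsk but not Acp5 numbered 162 and 177. An annotated gene on the opposite strand, 6530413G14Rik, overlaps Acp5, and whether counting used strand was not stated in these sources.

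Counting each gene not used by the cut, 6 of 7 were at least 2-fold higher in high than in other macrophages in the anti-VEGF library, where 8.8% of 13222 genes with at least 30 UMIs were past this fold. In the control library the same 6 of 7 were, where 8.66% of 13507 genes were. Tnfrsf11a was the exception in both. The ratios of the other genes went from 8.32-fold for Nfatc1 to 238-fold (175 to 331) for Oscar in the anti-VEGF library, and from 4.71-fold for Nfatc1 to 113.5-fold (89.8 to 146) for Oscar in the control library. The 7 genes had a median log2 ratio of 4.10 in the anti-VEGF and 3.77 in the control library, and all tested genes had medians of -0.08 and -0.11. The cut was set on Acp5 and Ctsk in these cells, and the genes had been chosen with such results known.

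The genes differed in how they followed Acp5 and Ctsk along their range. Macrophages were put in 6 bins by their summed Acp5 and Ctsk UMIs per 10000, from 0 to 30 or more. Nfatc1 was graded: it was at 23.7, 28.1, 36.8, 117, 204 and 447 CPM from the lowest to the highest bin in the anti-VEGF library. In the control library the same bins had 41.3, 48.8, 65.0, 191, 330 and 521 CPM. Atp6v0d2 was graded too, with 58.7, 131, 225 and 997 CPM in the 4 highest bins of the anti-VEGF and 42.1, 150.2, 371 and 1055 CPM in those of the control library. Below these bins it was at 39.4 and 39.7 CPM in the anti-VEGF and at 17.4 and 20.4 CPM in the control library. Atp6v0d2 was thus higher in the anti-VEGF library in the bins below 3 UMIs per 10000 and lower in those above. Oscar, Itgb3 and Dcstamp stayed low in the 5 lower bins and were high only in the highest. That bin has no upper edge and was not divided, so a step cannot be told from a steep rise within it. Dcstamp was between 1.71 and 3.71 CPM in the 5 lower bins of the anti-VEGF library and at 98.5 CPM in the highest, and between 3.02 and 4.10 CPM and at 78.9 CPM in the control library. Oscar was below 1 CPM in all 5 lower bins of both libraries and at 73.2 CPM in the highest bin of the anti-VEGF and 51.2 CPM in that of the control library. Ocstamp lay between these patterns, with 7.29 CPM in the anti-VEGF and 8.81 CPM in the control library in the bin below the highest. The highest bin held 981 anti-VEGF and 1943 control cells, with median depths of 31570 and 25477 UMIs.

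**Figure D2:**
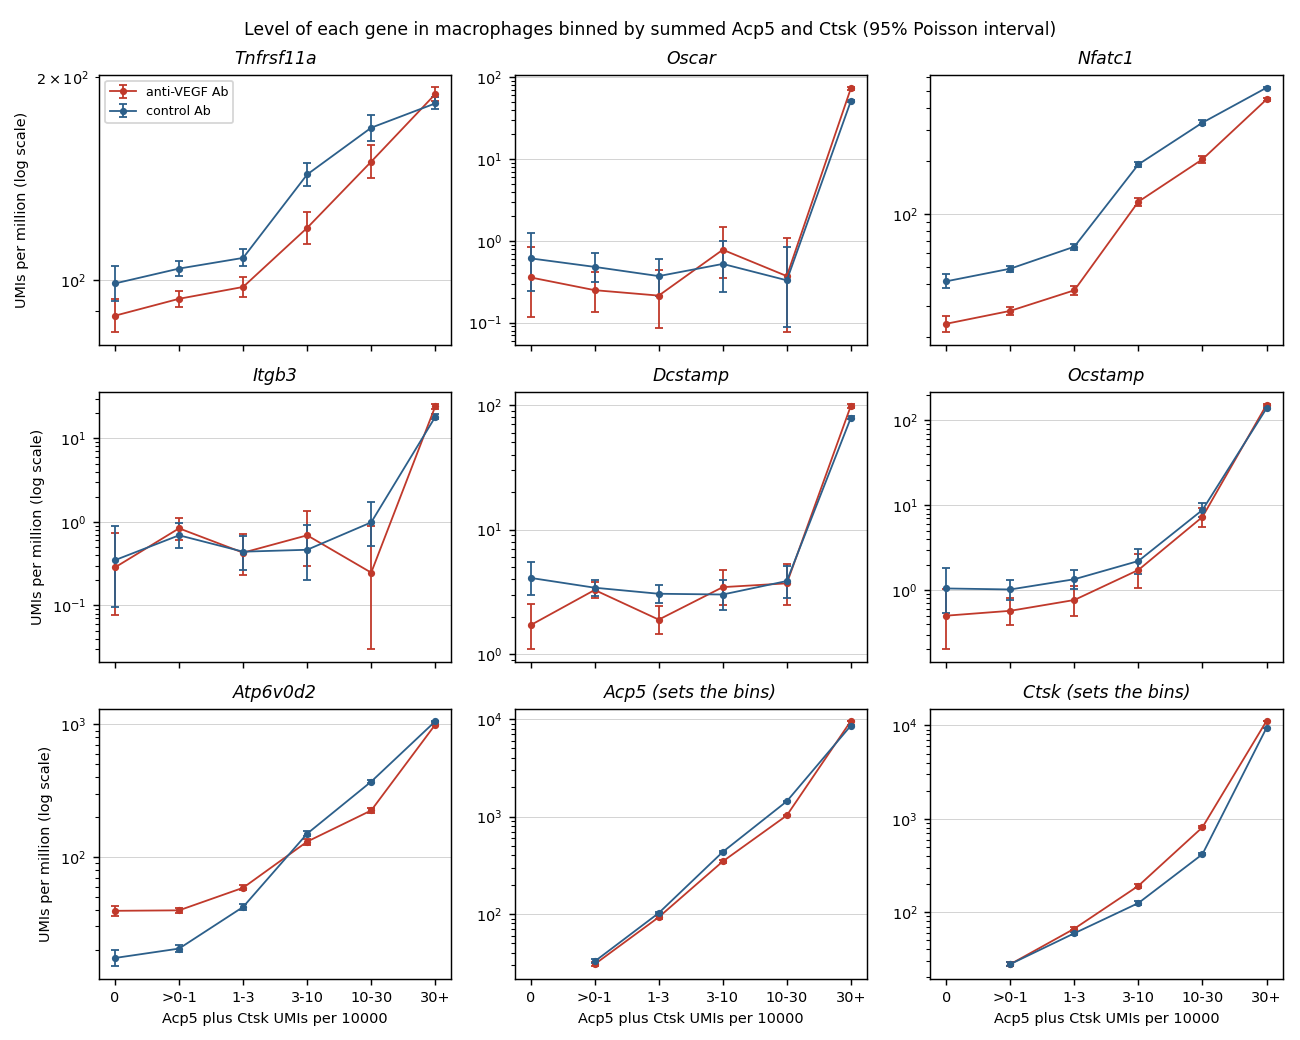
Level of each gene (CPM, log axis) in macrophages binned by summed Acp5 and Ctsk UMIs per 10000, for the anti-VEGF and the control library, with 95% Poisson intervals; bins at 0 UMIs are not drawn. Tnfrsf11a, Nfatc1 and Atp6v0d2 climb over several bins, while Oscar, Itgb3 and Dcstamp stay low up to the bin of 30 or more, where Dcstamp reaches 98.5 and 78.9.

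By a fixed rule, the 10 genes whose level over the 12 library-by-bin points was most like the mean of the 9 members, among 3404 genes with at least 50 CPM in 1 point, were Mfsd12, Emc4, Chchd3, Spred1, Cd109, Tcirg1, Actn1, Arl1, Ndufv1 and Agap1. Their Pearson correlations over these 12 points, taken on log2(CPM + 1), lay between 0.982 and 0.989. The points share libraries and depth, and the bins are set by Acp5 and Ctsk, which are among the 9, so these correlations are a description of likeness. They compare the shape of the curves, not the size of the rise, which differed between the 10 genes. From the lowest to the highest bin, Arl1 went from 108 to 137 CPM in the anti-VEGF and from 104 to 137 CPM in the control library. Agap1 went from 24.1 to 107 CPM and from 22.1 to 114 CPM. Tcirg1, which encodes another subunit of the osteoclast proton pump, was at 312 CPM in the highest and 87.9 CPM in the lowest bin of the anti-VEGF library, and at 349 and 81.4 CPM in the control library.

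The genes were found together in single cells. After thinning to 5000 UMIs, at least 5 of the 9 had a UMI in 12.7% (11.8 to 13.6) of 5449 anti-VEGF and 17.6% (16.7 to 18.6) of 6398 control macrophages. Among high cells, where 2 of the 9 are present by the cut, this share was 76.8% (73.7 to 79.6) in the anti-VEGF and 75.8% (73.3 to 78.1) in the control library. Among other macrophages it was 1.40% (1.08 to 1.79) in the anti-VEGF and 3.31% (2.84 to 3.84) in the control library. Among collagen-expressing cells that did not meet the cut it was 0 of 585 in the anti-VEGF library, at most 0.513% when 3 counts are taken as the limit, and 0.238% (0.00603 to 1.32) of 420 in the control library. Of the 7 genes not used by the cut, high cells held a median of 3 and other macrophages a median of 1, in both libraries. All 9 were seen in 12 of 818 high anti-VEGF and 10 of 1263 high control cells, and in 0 of 4631 other anti-VEGF and 0 of 5135 other control macrophages, which allows shares of up to 0.0648% and 0.0584% at the same limit.

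**Figure D3:**
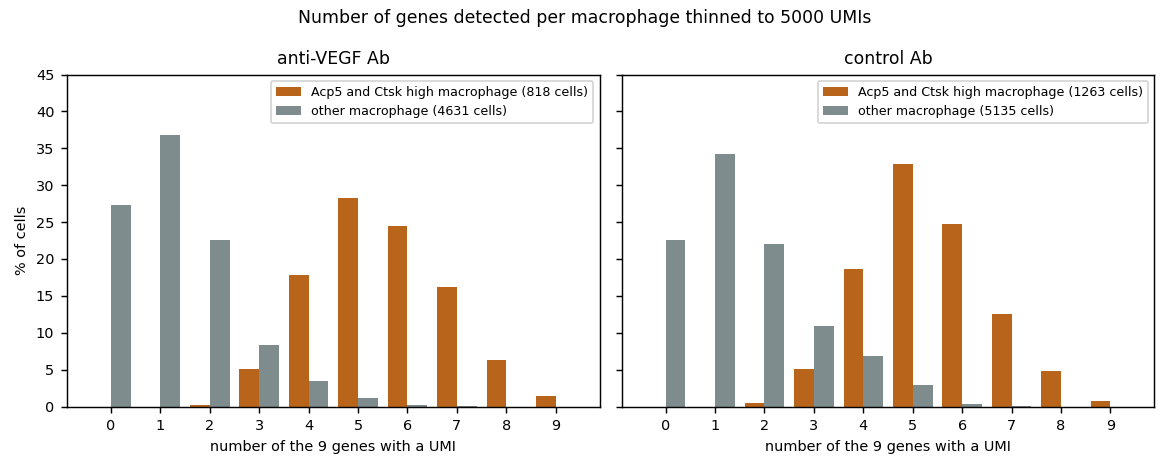
Number of the 9 genes with at least 1 UMI in macrophages thinned to 5000 UMIs (share of cells, %), for Acp5/Ctsk-high and other macrophages, with the anti-VEGF library on the left and the control library on the right. High cells, in which Acp5 and Ctsk are present by the cut, centre on 5 genes and other macrophages on 1 gene in both libraries.

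Each ordered pair of genes was compared as the share of cells with the one among cells with and without the other. Both orders of a pair are counted, and they always share direction. Over all macrophages, all 72 ordered pairs had the higher share in cells with the other gene, with intervals apart, in both libraries. For example, Ocstamp was seen in 62.4% of anti-VEGF macrophages with an Oscar UMI and in 5.15% of those without, and in 63.9% and 7.48% in the control library. Within high cells the 42 ordered pairs without Acp5 or Ctsk can differ, and intervals were apart for 20 of 42 in the anti-VEGF and 16 of 42 in the control library, all of these higher with the other gene. Within high cells, Ocstamp was seen in 65.5% of anti-VEGF cells with an Oscar UMI and in 37.4% of those without, and in 67.1% and 37.5% in the control library. Dcstamp was seen in 46.4% of anti-VEGF high cells with Ocstamp and 25.4% of those without, and in 39.3% and 19.9% in the control library. Tnfrsf11a showed no such difference with Oscar, at 60.5% and 58.9% in the anti-VEGF and 55.9% and 58.1% in the control library, with overlapping intervals. How often pairs of other genes differ in this way was not tested. These pair counts thus cannot be told from those of other genes that vary between macrophages. Their intervals treat the cells of a library as independent. Cells thinned to the same number of UMIs can still differ in the share of RNA from other droplets, and its part was not tested.

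Between the libraries, summed over all macrophages, Nfatc1 was the only one of the 9 past a 1.5-fold difference. It was at 133 CPM in anti-VEGF and 209 CPM in control macrophages, a ratio of 0.639 (0.628 to 0.650). This makes 0 of 9 genes at least 1.5-fold higher, where 7.08% of 14389 genes were, and 1 of 9 at least 1.5-fold lower, where 6.14% were. With no cell filter, or with ratios centred on the median gene, the count of lower genes was 0. Next came Atp6v0d2, at 261 CPM in anti-VEGF and 334 CPM in control macrophages (ratio 0.783, 0.773 to 0.792). The intervals of Itgb3 (ratio 1.07, 0.973 to 1.17) and Dcstamp (0.982, 0.939 to 1.03) held 1, and the other ratios lay between 0.866 for Ocstamp and 1.13 for Oscar. The median log2 ratio was -0.16 for the 9 genes and -0.07 for all genes.

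Splitting the macrophages by the Acp5 and Ctsk cut gave these ratios on each side of it. In high cells 0 of 9 genes were past 1.5-fold in either direction, where 3.52% of 12030 genes were higher and 4.08% lower. There 7 of the 9 ratios were above 1, the largest being 1.38 (1.31 to 1.46) for Oscar, 1.29 (1.17 to 1.42) for Itgb3 and 1.21 (1.16 to 1.27) for Dcstamp, and the lowest 0.875 (0.857 to 0.894) for Nfatc1. In other macrophages 4 of 9 genes were at least 1.5-fold lower in the anti-VEGF library, where 6.74% of 13954 genes were, and 0 of 9 higher, where 7.4% were. Nfatc1 had a ratio of 0.495 (0.481 to 0.509), Acp5 of 0.540 (0.532 to 0.548), Ocstamp of 0.640 (0.545 to 0.750) and Oscar of 0.660 (0.440 to 0.980). The count thus includes Acp5, which the cut uses, and Oscar, which had 42 anti-VEGF and 72 control UMIs. Ctsk went the other way, with a ratio of 1.48 (1.45 to 1.52). Since the cut uses Acp5 and Ctsk, their values on either side of it depend on where it lies, and cells of intermediate level were unequal in number between the libraries. The bin of 10 to 30 summed UMIs per 10000, which can hold cells on either side of the cut, held 304 of 5796 anti-VEGF and 679 of 7969 control macrophages. Nfatc1, which the bins do not use, was lower in the anti-VEGF library in every bin, from 23.7 against 41.3 CPM in the lowest to 447 against 521 CPM in the highest.

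**Figure D4:**
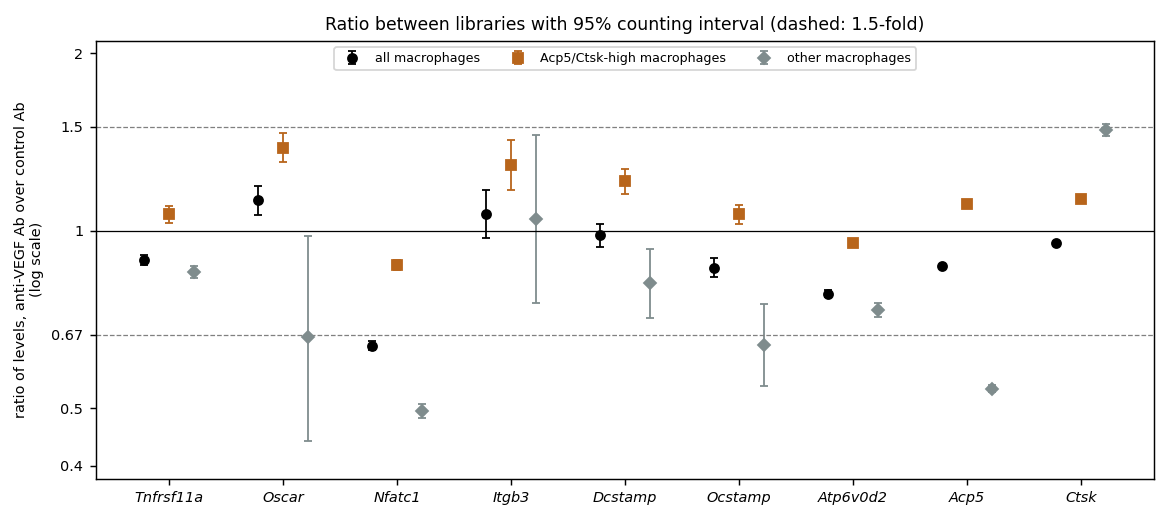
Ratio of the level in the anti-VEGF library over that in the control library (log axis) for each gene in all macrophages, in Acp5/Ctsk-high macrophages and in other macrophages, with 95% counting intervals and dashed lines at 1.5-fold. Nfatc1 lies below 1 in all 3 sets, at 0.639, 0.875 and 0.495, and no gene passes 1.5-fold in high cells.

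High cells were unevenly spread over the macrophage states. Of cycling macrophages, 10.4% in the anti-VEGF and 13.2% in the control library were high, and of those with interferon-response genes 3.99% and 9.49%. The lowest shares were in hypoxia-gene macrophages, at 1.74% in the anti-VEGF library, and in Ly6c2 and Ccr2 macrophages, at 2.94% in the control library. Hypoxia-gene macrophages numbered 1149 in the anti-VEGF and 228 in the control library. After thinning, 12.2% (10.1 to 14.7) of high and 21.3% (20.2 to 22.5) of other anti-VEGF macrophages were cycling by their genes, and 14.3% (12.4 to 16.3) and 31.0% (29.7 to 32.3) in the control library. Detection of cycling genes depends also on RNA from other droplets, which was not tested.

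A further 58 genes of the osteoclast pathway in 6 lists, also put together with results of these data known, place the 9 genes in context. In the list of acid secretion and matrix breakdown, 12 of 14 genes were at least 2-fold higher in high than in other macrophages in both libraries and 0 were lower. Of all genes, 8.8% in the anti-VEGF and 8.66% in the control library were past this fold upwards, and 18.3% and 17.2% downwards. The list's median log2 ratio was 2.25 in the anti-VEGF and 1.92 in the control library. Mmp9, the gelatinase B gene, was at 5638 CPM in high and 40.3 CPM in other anti-VEGF macrophages, and at 3382 and 34.3 CPM in control ones. Car2, the carbonic anhydrase that supplies protons, was at 150.2 and 4.65 CPM in the anti-VEGF and 113 and 8.29 CPM in the control library. The pump subunit genes Tcirg1, Atp6v1c1 and Atp6v1b2 were between 2.74-fold and 5.76-fold higher in both libraries, the chloride channel gene Clcn7 3.12-fold and 2.97-fold, and the anion exchanger gene Slc4a2 6.04-fold and 5.48-fold. The vesicle trafficking genes Snx10 and Plekhm1 were 7.20-fold and 2.20-fold higher in the anti-VEGF and 6.60-fold and 2.36-fold in the control library. Slc37a2, a sugar-phosphate transporter gene, was 5.25-fold and 4.62-fold higher, and Mmp14, a membrane-bound matrix metalloproteinase gene, 5.32-fold and 3.83-fold. Calcr, the calcitonin receptor gene of mature osteoclasts, was rare even in high cells, at 3.42 CPM in the anti-VEGF and 2.82 CPM in the control library. Ostm1 and Atp6ap1 did not reach 2-fold.

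Among 12 transcription genes, 4 were at least 2-fold higher in both libraries and 0 lower, against 8.8% and 8.66% of all genes higher in each library: Ppargc1b, a coactivator of mitochondrial biogenesis, Jdp2, Prdm1 and Mitf. Their ratios were 10.1, 7.60, 5.25 and 2.36 in the anti-VEGF and 6.81, 4.27, 3.49 and 2.11 in the control library. Prdm1 encodes Blimp1, which in osteoclasts represses the genes that hold differentiation back. The list of such restraints showed the opposite direction, with 3 of 4 genes at least 2-fold lower in both libraries, where 18.3% of genes in the anti-VEGF and 17.2% in the control library were past this fold. Irf8 was at 20.9 CPM in high and 139 CPM in other anti-VEGF macrophages, and at 22.7 and 138 CPM in control ones. Bcl6 and Rbpj were also lower, with ratios between 0.354 and 0.389, and Id2 did not reach 2-fold. The median log2 ratio of the 4 genes was -1.38 in the anti-VEGF and -1.36 in the control library.

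**Figure D5:**
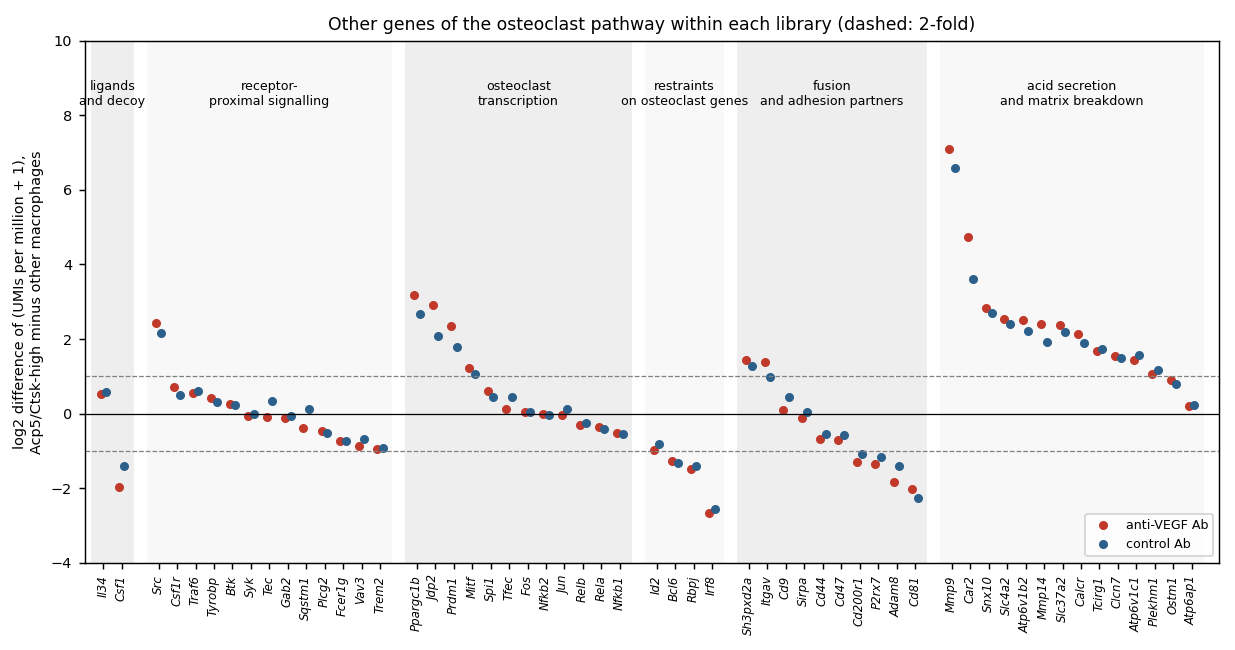
Difference in log2(CPM + 1) between Acp5/Ctsk-high and other macrophages for the genes of 6 lists with at least 30 UMIs, ordered within each list by the anti-VEGF library, whose point is left of the control library's; dashed lines mark 2-fold. Acid secretion and matrix genes lie mostly above the upper line and the restraints mostly below the lower one, in both libraries.

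Of 13 receptor-proximal signalling genes, 1 was at least 2-fold higher in both libraries and 0 were lower, and 1 of 13 is near the 8.8% and 8.66% of all genes past this fold. This was Src, the tyrosine kinase gene needed for the ruffled border, at 84.7 CPM in high and 14.9 CPM in other anti-VEGF macrophages and at 90.1 and 19.3 CPM in control ones. Trem2, an immunoreceptor gene, was at 0.513 and 0.527 times its level in other macrophages in the anti-VEGF and the control library, the signalling gene Vav3 at 0.534 and 0.606 times, and Fcer1g, the gene of FcR gamma, at 0.601 and 0.603 times. Others of this list had ratios above 1 in both libraries, among them Csf1r (1.64 and 1.43), Traf6 (1.49 and 1.57) and Tyrobp (1.33 and 1.25). The list's median log2 ratio was -0.09 in the anti-VEGF and 0.12 in the control library. Of 10 fusion and adhesion partners with enough UMIs, 1 was higher in both libraries, again near the share of all genes, and 4 were lower, where 18.3% and 17.2% of all genes were. Sh3pxd2a, a podosome scaffold gene, was 2.99-fold and 2.65-fold higher. The lower ones were Cd81, a tetraspanin that restrains macrophage fusion in mice, Adam8, Cd200r1 and P2rx7, with ratios between 0.206 and 0.446. Cd9, another tetraspanin gene of the list, was not lower. It was at 643 CPM in high and 607 CPM in other anti-VEGF macrophages, and at 529 and 386 CPM in control ones. Itgav reached 2-fold in the anti-VEGF library only, at 2.65-fold against 1.98-fold in the control library. Adam8 was also 2.23-fold (2.18 to 2.27) higher in anti-VEGF than in control macrophages, at 194 and 87.1 CPM, whereas Prdm1 was lower, with a ratio of 0.610 (0.595 to 0.625).

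The ligands of the programme were highest in cells other than the macrophages. Tnfsf11, the gene of RANKL, was at 236 CPM (190 to 289) in T cells of the anti-VEGF and 46.0 CPM (31.0 to 65.7) in those of the control library, from 91 and 30 UMIs. A single T cell held 26.4% of these UMIs in the anti-VEGF and 46.7% in the control library. Collagen-expressing cells had 2.80 and 2.98 CPM, and macrophages 0.0710 and 0.0703 CPM. Csf1, the M-CSF gene, was at 107 CPM in collagen-expressing cells of the anti-VEGF and 150.1 CPM in those of the control library, at 81.1 and 74.6 CPM in neutrophils, and at 0.972 and 1.37 CPM in high macrophages. It was lower in high than in other macrophages in both libraries, with ratios of 0.144 (0.0956 to 0.208) and 0.258 (0.194 to 0.337). Il34, the other ligand of the M-CSF receptor, was at 22.9 and 19.7 CPM in collagen-expressing cells and at 4.53 and 4.51 CPM in high macrophages. Tnfrsf11b, the gene of the RANKL decoy osteoprotegerin, was at 1.75 CPM in collagen-expressing cells of the anti-VEGF and 0.722 CPM in those of the control library. It was 3.73-fold higher (1.63 to 9.56) in anti-VEGF than in control macrophages, on 25 and 8 UMIs. These UMIs came from 0.155% of anti-VEGF and 0.0878% of control macrophages, and a single cell held 28% and 25% of them. High macrophages held 23 of the anti-VEGF and 8 of the control UMIs, at 0.771 and 0.185 CPM, and other macrophages held 2 and 0.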

How the data were processed

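Unnormalised UMI counts came from the 2 deposited filtered matrices, 1 per library, with no column left unused. The submitters' processing notes name Cell Ranger 3.0.2 and build mm10. Software version 3.1.0 is named instead per the file headers. The matrices held 8825 anti-VEGF and 11687 control barcodes with 213948867 and 233687412 UMIs. Barcodes were kept from 300 genes and 500 UMIs upwards, if mitochondrial genes held no more than 10% of UMIs. Cells were gated by the number of lineage markers with a UMI: 6 of 9 for macrophages, 3 of 5 for neutrophils, 3 of 8 for dendritic cells, 2 of 5 for T cells, 2 of 4 for NK cells and for B cells, and at least 5 collagen UMIs per 10000 for collagen-expressing cells. Macrophage states were gated by markers as well, and most took the top 10% over both libraries. Cells meeting several lineage gates, 99 anti-VEGF and 191 control, were left out as possible doublets. Scrublet set thresholds of 0.623 and 0.55 and called 0 and 1 cells, so it had not worked, and its top scores were left out only as an alternative.

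The 9 genes, the gates and the pathway lists were chosen with earlier results of these data known. Levels are a class's summed UMIs of a gene per 1e6 of its UMIs (CPM), with exact Poisson 95% intervals. Shares have exact binomial (Clopper-Pearson) intervals, and ratios exact conditional binomial ones. Log2 ratios used a pseudocount of 1 CPM. A gene was counted as past a fold of 1.5 between libraries, or 2 between high and other macrophages, with at least 30 UMIs. These intervals cover counting error only. Shares of cells with a UMI were taken after thinning each cell to 5000 UMIs, which left out shallower cells. The genes named as most alike were the 10 with the highest Pearson correlation. Every gene of the 6 lists past the fold in both libraries could be named. One gene was taken out of the lists after the analysis and is not reported here, and the counts and medians of its list were computed without it. The ratio step was tested on simulated data. Alternatives changed the cell filter, the macrophage gate, doublet removal, shared barcodes, depth, the cut, the pseudocount, the scaling and the number of genes per cell. Cells with at least 10000 UMIs were added as an alternative after the data were seen. Python 3.11.15, numpy 2.4.6, scipy 1.17.1, pandas 2.3.3, scanpy 1.11.5 and matplotlib 3.10.9 were used.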

Additional observations from a re-analysis of the deposited data

Results flagged for a closer look

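For 5 genes the log2 ratio of anti-VEGF over control had opposite signs in Acp5/Ctsk-high and in other macrophages, on log2(CPM + 1), and these differences were not tested, since each group is 1 library. Acp5 had 0.15 in high and -0.89 in other macrophages, a difference of 1.04, and it is one of the genes that set the cut. Oscar had 0.46 and -0.18, a difference of 0.64, Ocstamp 0.09 and -0.46, a difference of 0.55, and Dcstamp 0.28 and -0.23, a difference of 0.50. In other macrophages Oscar had only 42 anti-VEGF and 72 control UMIs, at 0.336 and 0.508 CPM. These levels are below the pseudocount of 1 CPM, so the value of -0.18 depends on it. Tnfrsf11a had 0.09 and -0.23, a difference of 0.32.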

How the results depend on the processing

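The share of high macrophages, 15.03% in the anti-VEGF and 21.6% in the control library, was 17.4% and 23.3% with no cell filter, 8.46% and 12.9% with a stricter one, and 5.31% and 9.18% with a gate of 8 markers. It was 13.6% and 20.1% without the top Scrublet scores, 16.1% and 24.4% with a cut of 5 UMIs per 10000, and 13.7% and 18.8% with a cut of 20. In the control library it was 23.1% with a gate of 5 markers, 19.7% in cells with at least 10000 UMIs and 19.8% in cells thinned to 5000 UMIs. The anti-VEGF share was the lower one in each of these settings. The share of macrophages with at least 5 of the genes, 12.7% and 17.6%, was 15.6% and 20.2% with no cell filter, 7.13% and 10.6% with a stricter one, 4.27% and 6.36% with a gate of 8 markers, and 17.6% and 24.9% after thinning to 10000 UMIs. It was 18.3% and 26.8% for at least 4 genes, 7.49% and 8.80% for at least 6, and 13.6% for the anti-VEGF library in cells with at least 10000 UMIs. The count of genes at least 1.5-fold lower in anti-VEGF macrophages was 0 in place of 1 with no cell filter and with ratios centred on the median gene. Of 500 alternative log2 ratios of single genes, 270 stayed within the counting interval and 230 moved outside it, of which 118 lay further from 0 and 106 nearer to 0 with the same sign. In all, 7 changed sign, each between the libraries. Of these, 3 had an interval without 0: Oscar in all macrophages (-0.0486) and Atp6v0d2 in high macrophages (0.0744), both as a mean over cells, and Ocstamp in high macrophages with a gate of 8 markers (-0.0513). The others had an interval that held 0: Dcstamp in all macrophages with a stricter filter (0.0592) and with centred ratios (0.0419), and Itgb3 after thinning in all (-0.0744) and in other macrophages (-0.0509). The cause of these changes was not tested. The 6 genes at least 2-fold higher in high macrophages stayed 6 in each setting run. Leaving out a replicate was not possible with 1 library a group. No paired analysis was possible because each group has 1 library and no test was made.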
